A study of Rattus norvegicus with 8 samples.

Results

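The 10 genes described here, Pecam1, Cdh5, Kdr, Flt1, Tek, Tie1, Vwf, Eng, Ednrb and Emcn, are genes by which endothelial cells, the inner lining of blood vessels, are commonly recognised. They were chosen by name, with earlier results of these data known. A probe was assigned to a gene where the RefSeq transcript that the array gives for the probe belongs to that gene. Of the 10 genes 6 had a probe among the 24684 probes of the array, which cover 13888 mRNA genes with a symbol (Pecam1, Cdh5, Flt1, Tek, Ednrb and Emcn), each with 1 probe in 1 spot. No probe was matched to Kdr, Tie1, Vwf or Eng, and these 4 are not described further. In lung 5 of the 6 passed the filter on dim probes, for which 3 or more of the 6 lung arrays had to show a signal well above background, and Cdh5 did not.

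RNA was measured on the Arraystar rat lncRNA array, a 1-colour Agilent oligonucleotide array that carries mRNA probes beside probes for long non-coding RNAs (lncRNAs). The rats were male F344, and all samples were taken at week 95. The groups were 3 lung tumors (moderately differentiated adenocarcinomas by the study's methods) and 3 normal lung tissues matched to them, all from rats given the tobacco nitrosamine NNK, a lung carcinogen, and clotted whole blood of 1 control rat and of 1 NNK-treated rat. Normal lung therefore stands for tumor-free tissue of treated animals, and no lung of an untreated rat was analysed here.

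Several features of the arrays bear on every value below. The pairs of normal lung arrays differed by 0.804 to 1.38 times the mean squared difference given by the spread between spots of 1 probe, and lung tumor arrays 2 and 3 differed by 0.578 times, whereas lung tumor array 1 differed from both by 5.92 and 6.13 times. Arrays that close may hold 1 RNA, so the means ± SD below count normal lung as 1 sample and lung tumor as 2 samples (array 1, and the mean of arrays 2 and 3), while limma used all 6 lung arrays as labelled. An alternative fit on the samples so counted has 1 normal lung sample, which limma then takes to vary like the lung tumors, so its p-values hold no spread of normal lung. Nothing in the labels says that the samples of a group came from separate animals, so p-values measure the spread between these arrays, which may be technical. By the scan they shared, normal lung arrays 1 to 3 and lung tumor array 1 were on 1 slide, lung tumor arrays 2 and 3 on another and the blood arrays on the other one. Among the lung tumor arrays, slide and sample therefore cannot be told apart. Of the spots above background 4.92 to 8.62% carried a mark of the scanner software as non-uniform or as an outlier on the normal lung arrays and 15.9 to 25.3% on the lung tumor arrays. The number of arrays limits the precision.

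Endothelial cells hold on to each other through Pecam1 and the cadherin Cdh5, and they read growth factors of the VEGF family through the receptor tyrosine kinases Flt1 and Kdr. Tek (TIE2), with its partner Tie1, is the receptor of the angiopoietins, which regulate vessel stability, and Eng is a coreceptor for the TGF-beta family. Emcn is a sialomucin of venous and capillary endothelium, Ednrb is a receptor of the endothelins, and Vwf is a clotting protein stored in endothelial cells and platelets. In the lung the alveolar capillaries make endothelium one of the main cell types of the tissue.

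For 6 of the 10 genes the RefSeq promoter table of the rat assembly GRCr8 held a window of 250 bases before to 50 after the gene's start (Emcn, Eng, Tie1, Flt1, Kdr and Ednrb). The 3 whose probes gave a signal are shown, 5′ to 3′ on the strand of the gene. Emcn and, with marked spots kept, Ednrb were called lower in lung tumor. Flt1, whose lung signal was dim, was not called in either direction. Capitals mark AGGAAG, a core variant bound by ETS factors, which are regulators of many endothelial genes, and TATAAA, on either strand.
Emcn (GRCr8 chr2:228564289-228564588, + strand): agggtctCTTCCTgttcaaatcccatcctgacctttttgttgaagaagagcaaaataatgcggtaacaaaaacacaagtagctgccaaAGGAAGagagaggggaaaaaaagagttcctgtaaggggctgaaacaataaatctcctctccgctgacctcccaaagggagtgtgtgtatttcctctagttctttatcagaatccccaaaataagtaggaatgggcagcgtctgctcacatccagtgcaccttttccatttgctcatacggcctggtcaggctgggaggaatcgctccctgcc
Ednrb (GRCr8 chr15:87086716-87087015, - strand): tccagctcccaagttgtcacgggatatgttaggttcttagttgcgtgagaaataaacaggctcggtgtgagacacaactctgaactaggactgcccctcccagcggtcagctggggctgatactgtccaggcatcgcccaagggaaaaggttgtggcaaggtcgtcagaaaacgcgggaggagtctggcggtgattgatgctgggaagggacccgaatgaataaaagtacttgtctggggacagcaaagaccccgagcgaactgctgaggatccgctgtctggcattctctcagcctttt
Flt1 (GRCr8 chr12:12333180-12333479, + strand): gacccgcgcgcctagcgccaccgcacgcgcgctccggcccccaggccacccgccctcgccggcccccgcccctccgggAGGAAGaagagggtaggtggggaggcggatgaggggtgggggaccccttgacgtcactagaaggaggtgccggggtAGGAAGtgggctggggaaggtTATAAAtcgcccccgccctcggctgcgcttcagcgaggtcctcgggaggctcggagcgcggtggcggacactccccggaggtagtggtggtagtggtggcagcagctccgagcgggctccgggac
AGGAAG or its reverse complement was present in 4 of the 6 windows (Emcn, Eng, Tie1 and Flt1), against 34.5% of the 33469 windows in the table. TATAAA was present in Flt1 only of the 6, against 14.2%. The ETS variant CCGGAA was found in Kdr only of the 6, against 15%, and the GATA sequence AGATAA in none of the 6, against 11.6%. No searched motif lay in the Ednrb window, which says only that these letters are not there.

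**Figure D1:**
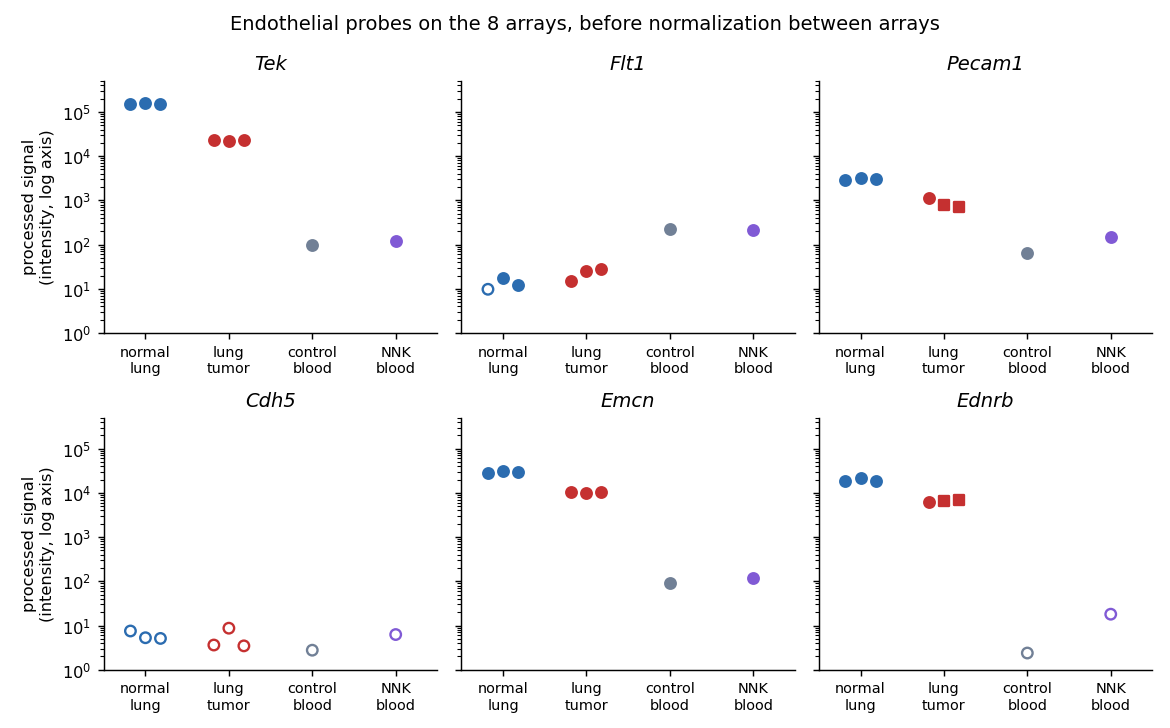
Processed signal (intensity, log axis) of the 6 endothelial probes on each array of normal lung, lung tumor, control blood and NNK blood; hollow symbols are not well above background and squares carry a non-uniformity mark. Tek, Emcn, Pecam1 and Ednrb were lower on all 3 lung tumor arrays than on all 3 normal lung arrays, Cdh5 was not well above background anywhere, and Flt1 was brighter on the blood arrays than on the lung arrays.

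The comparison of lung tumor with normal lung asked which endothelial genes differ between tumor and the surrounding lung. Tek, Pecam1, Ednrb and Emcn were lower in lung tumor, by 6.67-, 3.67-, 2.71- and 2.58-fold, and no member was called higher. With marked spots left out, Tek and Emcn were called lower (2 of the 3 members that could be tested), beside 15.5% of the 12471 probes tested, and 0 of 3 were called higher, beside 13.5%. With marked spots kept, 4 of 5 members tested were called lower, beside 14.4% of the 15803 probes tested, and 0 of 5 higher, beside 13.5%. A probe was called at a fold change of 2 or more and a Benjamini-Hochberg adjusted p of 0.05 or less over all probes in limma; at an unadjusted p of 0.05 or less the number of members called higher was 0 as well. The median log2 difference of the members was -1.44 with marked spots kept, against 0.064 over all probes. In bulk tissue, fewer cells of a type and less RNA per cell cannot be told apart.

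Among the receptors, Tek had log2 signals of 17.33, 17.26 and 17.28 in normal lung and of 14.54, 14.55 and 14.58 in lung tumor. The groups lay far apart, and neither spread over more than 0.073. The log2 difference was -2.74 (SE 0.05, limma adjusted p = 3.93e-06), and the tumor mean was 14.55 ± 0.0212 (SD, n = 2). Of the 15803 probes, 2.58% fell further than Tek.

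Flt1, the VEGF receptor also called VEGFR1, gave log2 signals of 3.59, 4.08 and 3.81 in normal lung and 4.11, 4.43 and 4.45 in lung tumor. All 3 tumor values lay above the normal ones, by a gap smaller than the spread within either group, and the probe was well above background on 2 of 3 normal and 3 of 3 tumor arrays. The log2 difference of 0.50 (SE 0.16, limma adjusted p = 0.0385) was under 2-fold and was not called. It turned to -0.019 (adjusted p = 0.751) when the background was corrected by normexp, so no direction is given for Flt1.

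Ednrb gave log2 signals of 14.10, 14.21 and 14.16 in normal lung and 12.60, 12.74 and 12.81 in lung tumor. The groups did not overlap, and all 3 tumor values were more than 1 log2 unit below the lowest normal value. The spots on lung tumor arrays 2 and 3 were marked as non-uniform, so with marked spots left out Ednrb could not be tested. With these spots kept the log2 difference was -1.44 (SE 0.07, limma adjusted p = 3.27e-05), and the unmarked spot of lung tumor array 1 alone lay -1.56 from the mean of normal lung.

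The adhesion gene Pecam1 (CD31) gave log2 signals of 11.52, 11.51 and 11.61 in normal lung and 10.11, 9.54 and 9.37 in lung tumor. The groups did not overlap, but the tumor arrays differed among themselves more for Pecam1 than for Tek, Ednrb or Emcn. The tumor mean was 9.78 ± 0.466 (SD, n = 2), a split of the arrays that is also that of the slides. The Pecam1 spots on lung tumor arrays 2 and 3 were also marked as non-uniform. With them kept the log2 difference was -1.88 (SE 0.20, limma adjusted p = 0.000556), while the unmarked spot of lung tumor array 1 gave -1.44. With the near-identical arrays counted once the difference was -1.77, of about the same size, and was no longer called (limma adjusted p = 0.0732) in that fit of 1 normal lung sample against 2 tumors.

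Emcn gave log2 signals of 14.78, 14.76 and 14.85 in normal lung and 13.41, 13.41 and 13.48 in lung tumor. The 3 tumor values lay together and well below the normal ones. The log2 difference was -1.37 (SE 0.06, limma adjusted p = 1.82e-05), and the tumor mean was 13.43 ± 0.0265 (SD, n = 2).

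Cdh5 (VE-cadherin), a defining gene of endothelium, was not well above background on any of the 8 arrays, with a processed signal of at most 8.70. The labels name the tissue as lung, which holds endothelium, and the level of Cdh5 there could not be read from this probe. The cause of the low signal of the Cdh5 and Flt1 probes was not tested.

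The differences were also present on lung tumor array 1, which was on the slide of the normal lung arrays. Its distance from the mean of normal lung was -2.76 for Tek, -1.56 for Ednrb, -1.44 for Pecam1 and -1.39 for Emcn, so each of these 4 was lower by more than 2-fold within that slide. For Flt1 the distance was 0.28.

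**Figure D2:**
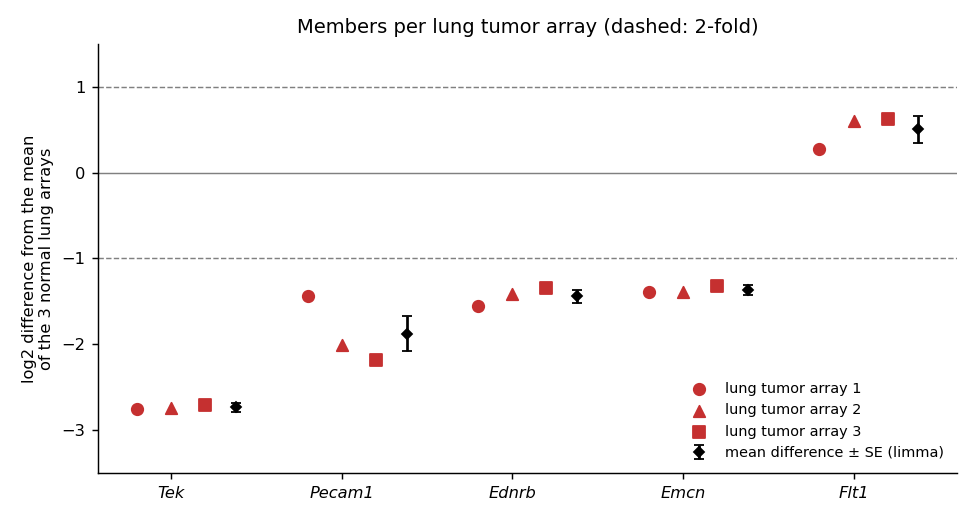
Log2 difference of each lung tumor array from the mean of the 3 normal lung arrays for the 5 members above background, with the limma mean difference ± SE (marked spots kept); dashed lines mark 2-fold. Tek, Ednrb and Emcn lay at nearly the same level on the 3 tumor arrays, Pecam1 ranged from -1.44 to -2.18, and Flt1 stayed under 2-fold.

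The ligands of these receptors were mostly lower too. Of the 8 VEGF and angiopoietin genes in a list, all had a probe and 6 were tested. Of these 4 fell (Pgf, Vegfc, Angpt2 and Vegfa) and 1 rose (Vegfb), with a median of -1.57. Beside these counts, and those of the lists below, 15.5% of all probes tested were called lower and 13.5% higher. Pgf, the placental growth factor that binds Flt1, fell by 3.22 on the log2 scale (SE 0.10, limma adjusted p = 9.39e-06). Vegfc, the growth factor of lymphatic vessels, fell by 2.17 (SE 0.08, adjusted p = 1.62e-05 in limma). Vegfa, the main ligand of Kdr, fell by 1.36, and Angpt2, the antagonist ligand of Tek, fell by 1.78. Vegfb, a further ligand of Flt1, rose by 1.95 (SE 0.27, limma adjusted p = 0.00166), from 4.13, 4.80 and 3.80 in normal lung to 6.33, 6.17 and 6.09 in lung tumor. It was not called with normexp or in the paired form of the methods' t-test. Angpt1, the agonist ligand of Tek, and Vegfd did not pass the filter on dim probes.

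Among 12 other receptors and coreceptors 9 had a probe and 6 passed the filter. With marked spots left out, 2 of 2 tested fell, Ramp2 by 2.64 (SE 0.27, limma adjusted p = 0.000539) and Calcrl by 1.40 (SE 0.33, limma adjusted p = 0.0132), which together form the receptor of adrenomedullin. With marked spots kept 5 of 6 were called lower, beside 14.4% of all probes, with a median of -2.54. S1pr1, the receptor for sphingosine 1-phosphate, differed by -2.44, Acvrl1, the ALK1 receptor that works with Eng, by -2.77 and Aplnr, the apelin receptor, by -2.997. The VEGF coreceptor Nrp1 differed by -0.38 and was not called.

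In the endothelin system, whose ligands act through Ednrb, Ednra fell by 1.83 (SE 0.17, limma adjusted p = 0.00272) and was the 1 gene called of 3 tested. With marked spots kept 2 of 5 were called lower, beside 14.4% of all probes. The other was Edn1, the endothelin gene expressed in endothelium, at -2.58. The converting enzymes Ece1 and Ece2 differed by -0.89 and -0.59, and Edn3 by 0.17, and none of these 3 was called.

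Over 8 lists of genes related to endothelium, with the members left out, 72 of 81 genes had a probe and 64 passed the filter on dim probes. They are called further endothelial genes here, but they include the VEGF and angiopoietin ligands, the endothelin-converting enzymes and Lpl. Which cells made their RNA was not tested. With marked spots left out, 24 of 39 tested (61.5%) were called lower and 1 higher, with a median of -1.78, beside 15.5% and 13.5% of all probes. Kept, the spots gave 43 of 64 lower (67.2%) and 2 higher (Vegfb and Lpl), with a median of -1.91. On lung tumor array 1 alone 45 of the 64 were at least 2-fold below normal lung. No share of all probes is given for that count, which involves no test. The lists were chosen with earlier results of these data known, so these shares are a description. Fewer of these genes, and fewer of all probes, were called lower in the fit with 1 normal lung sample against 2 tumors. That fit has no spread of normal lung.

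The genes of cell junctions and of the endothelial surface fell in 5 of 6 tested, among them Plvap, the protein of fenestral diaphragms, (-2.49, SE 0.06, limma adjusted p = 5.43e-06) and Cav1, the coat protein of caveolae (-2.33). With marked spots kept 9 of 10 were called lower, beside 14.4% of all probes. Esam, a junction molecule, differed by -0.56 and was not called. Of the endothelial transcription factors 7 of 12 tested fell, led by Sox17 (-2.81) and Sox18 (-2.57). The ETS factors were not all alike, since Ets1 fell by 1.37 while Ets2 (-0.27), Fli1 (-0.86) and Elk3 (-0.92) did not reach 2-fold. Erg, which binds the Cdh5 promoter, gave 4.32 on lung tumor array 1 and 6.66 and 6.72 on arrays 2 and 3, against 6.56, 6.78 and 6.48 in normal lung, so that its groups overlapped (-0.71, limma adjusted p = 0.399).

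In the Notch list the only gene tested, Dll4, the ligand of endothelial tip cells, fell by 2.61 (SE 0.11, limma adjusted p = 7.38e-05), and 3 of 4 were called lower with marked spots kept. Of the lung capillary genes 2 of 3 tested fell, Gpihbp1 (-2.53), which carries lipoprotein lipase across capillary endothelium, and Fibin (-1.60). With marked spots kept 6 of 8 were called lower, beside 14.4% of all probes, while Lpl, the lipase itself, was called higher at 2.83. Among anticoagulant, nitric oxide and adhesion genes 2 of 6 tested fell, Ace, the angiotensin-converting enzyme of lung capillaries, (-3.30, SE 0.29, limma adjusted p = 0.000282) and Nos3, the endothelial nitric oxide synthase (-1.93). Tfpi, an inhibitor of tissue factor, differed by 0.62 and Vcam1 by -0.62, both under 2-fold.

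Of the lymphatic endothelial genes 3 of 3 tested fell, with Lyve1, a hyaluronan receptor, at -4.08 (SE 0.06, limma adjusted p = 3.45e-06) and Reln at -2.64. All 4 were called lower with marked spots kept, beside 14.4% of all probes. Prox1, the factor that defines lymphatic identity, did not pass the filter. Pdpn made up 75.2 to 77.2% of the list's summed linear signal on the lung arrays. Which cells gave this RNA was not tested.

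**Figure D3:**
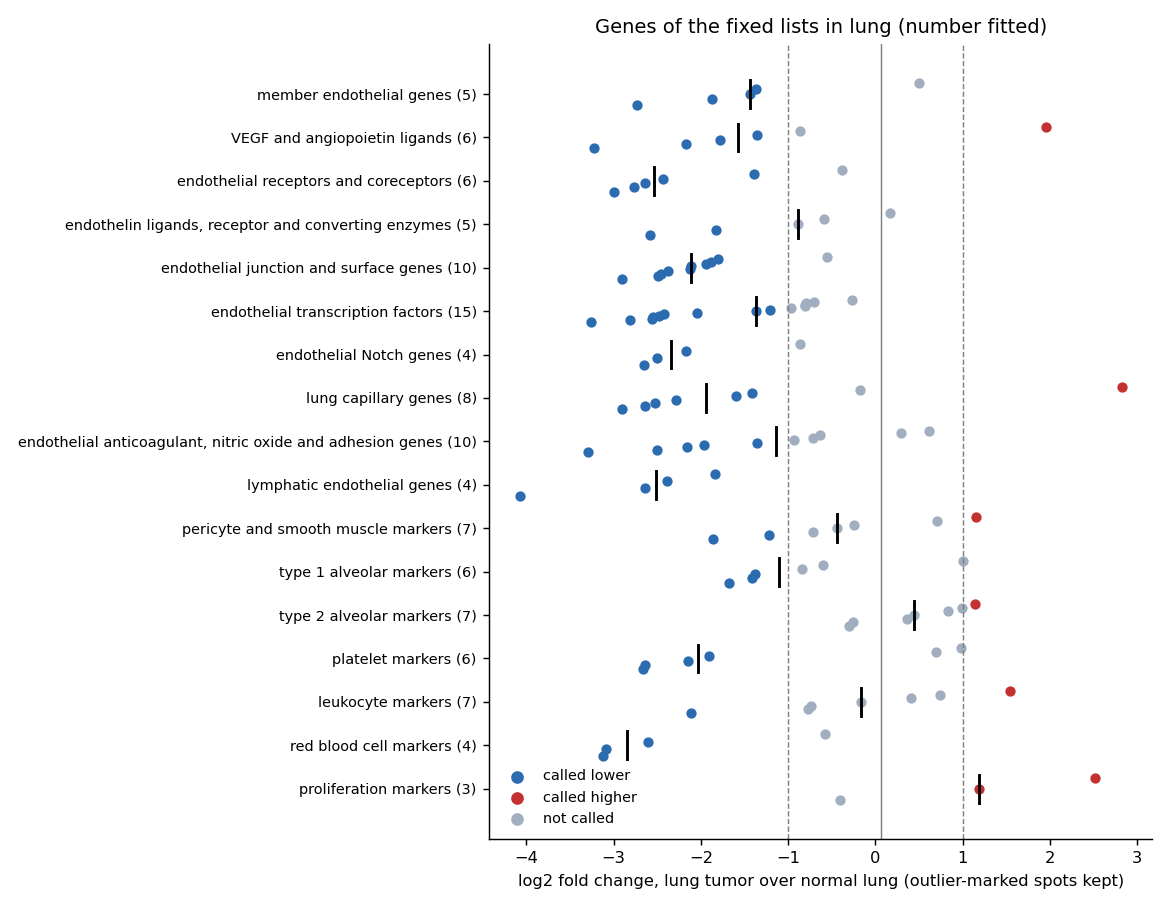
Log2 fold change of lung tumor over normal lung for each gene of the lists that was fitted with marked spots kept; black ticks are list medians, the grey line is the median of all probes and dashed lines mark 2-fold. Of the 8 endothelial lists below the members 7 have a median beyond the lower 2-fold line, as does the lymphatic list, and the median of the endothelin list is -0.89.

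Markers of other cells are given beside all probes tested, of which 14.4% were called lower and 13.5% higher with marked spots kept. The summed linear normalized signal of each list is given with the counts. With marked spots kept, 3 of 6 type 1 alveolar markers were called lower, Clic5 (-1.68) and Hopx (-1.41) among them, with sums of 913000 to 947000 in normal lung and 382000 to 395000 in lung tumor. Of the type 2 alveolar markers 0 of 7 were called lower and 1 higher, with sums of 1010000 to 1050000 and 1190000 to 1210000. Of the pericyte and smooth muscle markers, cells that wrap vessels, 2 of 7 were called lower and 1 higher (51200 to 53200 and 43300 to 49900). With marked spots left out the called ones were Cspg4 (-2.06), Rgs5 (-1.22) and Notch3 (1.15).

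Red blood cell markers were called lower in 3 of 4 (220000 to 229000 against 131000 to 140000), beside 14.4% of all probes. Among them were Alas2 (-3.09), an enzyme of heme synthesis, and the anion exchanger Slc4a1 (-2.61). The haemoglobin gene Hbb made up 87.9 to 97.7% of that sum. Without Hbb the sum was 26600 to 26800 in normal lung and 3040 to 3240 in lung tumor. Platelet markers were called lower in 4 of 6, among them Gp1ba (-2.64) and Ppbp, which was at least 5.89-fold lower and not well above background in lung tumor. The platelet sum was 5280 to 5590 in normal lung and 7910 to 9190 in lung tumor, but 73.5 to 95.8% of it was Pf4, whose spots were marked on all 6 lung arrays and which was not called (0.98). Without Pf4 the sum was 1380 to 1410 in normal lung and 382 to 461 in lung tumor.

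Leukocyte markers were called lower in 1 of 7 and higher in 1 of 7 (136000 to 142000 against 126000 to 154000). Those counts are near the shares over all probes, 14.4% lower and 13.5% higher. The gene called higher was the B cell gene Cd79b, at least 2.36-fold higher and not well above background in normal lung. Of 3 proliferation markers 2 were called higher, including Cdk1 at 2.52. The sum over the members was 206000 to 214000 in normal lung and 41900 to 43800 in lung tumor, of which Tek made up 56 to 77.2%. The part of these cell types in the members' differences was not tested. The members' own signal on the blood arrays is described below.

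On the blood arrays Tek and Emcn were far below their lung signals, and Ednrb was not well above background on either array. After quantile normalization over all 8 arrays, Tek gave log2 signals of 9.55 in control blood and 8.10 in NNK blood, against means of 17.03 in normal lung and 13.65 in lung tumor. Emcn gave 9.37 and 8.03 in blood, against 13.93 in normal lung and 12.43 in lung tumor. Ednrb was at least 712-fold brighter in normal lung than in blood and at least 254-fold brighter in lung tumor. These are descriptions, since blood holds 1 array a group.

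Pecam1, which platelets and leukocytes also carry, gave 8.57 and 8.61 in blood, against 8.95 in lung tumor and 10.61 in normal lung. Its order was normal lung, lung tumor and then blood, with a distance of 0.37 between lung tumor and the mean of blood on this scale. That distance depends on the scaling. Before normalization its processed signal was 690.6 to 1118 in lung tumor and 64.51 and 146.9 in blood, whose arrays were dimmer as a whole (75th percentiles of 95.36 and 205.8). Flt1 was higher in blood than in lung, with 11.19 in control blood and 9.58 in NNK blood against 3.74 in normal lung and 4.21 in lung tumor. The processed signal of its probe, 221 and 212.5 in blood, was at most 27.48 in lung.

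Between NNK blood and control blood, normalized within blood, 4 members could be compared and there was no test with 1 array a group. Flt1 was lower by 2-fold or more in NNK blood (7.18 against 8.26, a log2 difference of -1.08), as were 19.1% of the 14452 probes compared, and no member was higher by 2-fold, beside 23.1% of probes. Tek differed by -0.82 and Emcn by -0.75, while Pecam1 was nearly level at 6.60 and 6.62. The number of members past 2-fold depended on the scaling, being 3 with quantile normalization over all 8 arrays and 0 with normexp.

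Profiles were ranked over 8 arrays normalized together, by Euclidean distance of centred log2 signals from the per-array median of Tek, Flt1 and Emcn. These were the members past the filter on dim probes with no marked spot on any array. Flt1 was brighter in blood than in lung and Tek and Emcn were not, so the median is a mixture that need not match any of them. Among 6987 mRNA genes the nearest were Cnrip1 (distance 0.62), Apoc2 (0.71), Acbd7 (0.72), Inka2 (0.79) and Ndp (0.83). In lung tumor all 5 were below normal lung on this scale, by log2 differences of -1.68 for Cnrip1, -1.84 for Apoc2, -1.53 for Acbd7, -2.20 for Inka2 and -1.54 for Ndp. The median itself was lower in lung tumor, so these differences follow from how the genes were picked. Apoc2, Acbd7 and Ndp were not well above background on either blood array. The 8 arrays fall into normal lung, lung tumor and blood, which share their levels within a group.

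**Figure D4:**
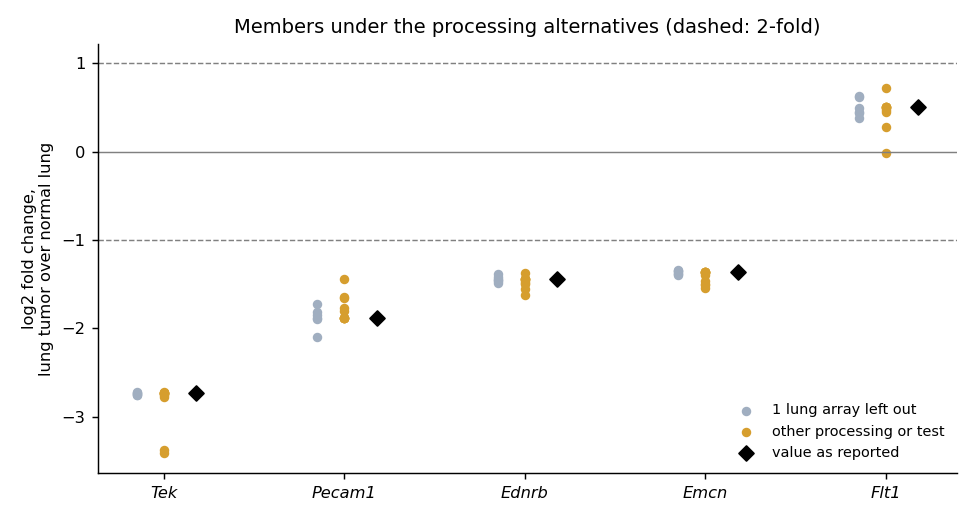
Log2 fold change of lung tumor over normal lung for 5 members as reported (diamonds), with each lung array left out (grey) and under the other processing alternatives or tests (yellow); dashed lines mark 2-fold. Tek, Pecam1, Ednrb and Emcn stayed beyond 2-fold under all of them, from -3.42 to -1.34, and Flt1 ran from -0.02 to 0.73.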

How the data were processed

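RNA of 3 lung tumors, 3 normal lung tissues and 2 blood samples was measured on 8 arrays. Per the labels and the file headers, the authors scanned 1-colour arrays with Agilent Feature Extraction 10.5.1.1 and deposited spot intensities, background-subtracted and not normalized between arrays. A table of log2 values, quantile-normalized by the authors in GeneSpring, served here only as an alternative. The description of the NNK blood sample repeats that of a lung tumor. Its title, source and tissue name blood, and it was used as blood.

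Processed intensities were put on the log2 scale in R 4.3.3, quantile-normalized within the 6 lung and within the 2 blood arrays, and fitted with limma 3.58.1 (lmFit and eBayes, group only, Benjamini-Hochberg over all probes). Spots with an outlier mark were left out, and since most mRNA probes have 1 spot, 3332 of 15803 probes passing the filter could not be tested, Pecam1 and Ednrb among them. These were taken from the same fit with marked spots kept. A test needed 2 values a group, except where near-identical arrays were counted once (1 normal lung sample, 2 tumors), a fit that takes its spread from the tumors alone. Symbols came from RefSeq transcripts of GRCr8 (14274 of 15323 mRNA probes, 93.2%). Where a gene had several probes, the one with the highest mean lung signal was used. Named were all members, up to 2 of the largest falls and rises past the threshold in each list, and the 5 nearest profiles. Others were named after their values were seen, to show the rest of a list.

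The labels match tissues by number. Deviations of same-numbered arrays from their group means correlated at 0.143, -0.0406 and 0.16 over 11359 probes, so the replicate number was a block only in an alternative. Members and lists were chosen with earlier results of these data known. The steps were tested on simulated data. Alternatives were quantile normalization over all 8 arrays, a shift by the 75th percentile, normexp with an offset of 50 on the median signals, no filter, a stricter filter, marked spots kept, the authors' values, the methods' t-test in both forms, the replicate or slide as a block, near-identical arrays counted once and each lung array left out. The counts over further endothelial genes were put through the same alternatives after the data were seen.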

Additional observations from a re-analysis of the deposited data

How the results depend on the processing

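Tek, Ednrb and Emcn stayed lower and past the threshold under every alternative run, between -3.42 and -2.72, -1.63 and -1.38, and -1.55 and -1.34 on the log2 scale, with adjusted p in limma or the methods' t-test of at most 0.0119, or 0.0462 with near-identical arrays counted once, where the 1 normal lung sample is taken to vary like the 2 tumors. Pecam1 ranged from -2.10 to -1.44 and lost its call only in that last fit (-1.77, adjusted p = 0.0732). Flt1 was reversed with normexp (-0.0194) and otherwise positive, up to 0.73. The cause was not tested.

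Members called lower rose from 2 to 4 with marked spots kept and with the authors' values, because Pecam1 and Ednrb could then be tested. The further endothelial genes called went from 24 lower and 1 higher to 43 and 2 under both. With marked spots left out, Vegfb lost its call with normexp and in the paired test, leaving 0 of these genes higher. With marked spots kept, 1 of these genes was called higher under each. Over all probes, normexp gave 1256 lower and 968 higher in place of 1929 and 1683, counting near-identical arrays once gave 974 and 777, and the paired form of the methods' t-test gave 1090 higher. With the replicate block, 2 members were lower and 0 higher, with 1942 probes lower and 1614 higher, and it changed no member's call.

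In blood, members at least 2-fold lower in NNK blood numbered 1 as reported, 3 with quantile normalization over 8 arrays and with the authors' values, and 0 with normexp. The Cdh5 probe was at background on all arrays, the Flt1 probe was not well above it on 1 of 3 normal lung arrays, and 1 spot a probe limits every member.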
